A study of Mus musculus with 9 samples.

Results

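The 42 genes described here encode the machinery that copies DNA, the enzymes that supply its deoxynucleotides and the factor that packs new DNA into chromatin. They were taken by gene symbol, through 82 probes that the platform annotation gives to one of them. For 40 of the 42, among 12703 genes tested in all, a probe lay above background on at least 3 arrays. Pola1 (1 probe) and Pole2 (2 probes) did not pass: their highest log2 intensity on any array was 6.15 and 6.38. The background level was 6.34. Expression was measured on 9 Illumina arrays, with 3 arrays each for submandibular salivary gland labelled normal, dysplastic gland and adenocarcinoma of the gland. All 9 came from Smgb-Tag mice, the normal glands included, so no group lacks the transgene. It expresses the large T antigen of SV40, which inactivates RB and p53, under sequences of the salivary secretory gene Smgb. The labels give no age, sex, strain background or number of animals.

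Replication starts at origins bound by the origin recognition complex, where CDC6 and CDT1 load the ring of MCM subunits before S phase. CDC45 and the GINS complex turn the ring into an active helicase, and primase, the replicative polymerases, the PCNA clamp and its loader then copy both strands. Many of these genes are transcribed by E2F factors, which RB holds back in resting cells, and the adult salivary gland is a tissue of slow cell turnover.

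Levels are log2 intensities, given in the order of replicates 1, 2 and 3 of a group, and a difference is one between group means on that scale. Each was tested in limma with Benjamini-Hochberg adjustment over 12703 genes, at an adjusted p under 0.05, and errors marked SE are moderated standard errors. Whether the replicates are separate animals is not in the labels. The p-values therefore reflect the spread among these arrays, which may be technical, and 3 arrays per group limit the precision. The array labelled normal 3 stood apart from normal 1 and 2, which correlated at 0.992 with each other over the tested genes and at 0.868 and 0.877 with it. Normal 3 correlated at 0.969 with dysplasia 2 and at 0.972 with adenocarcinoma 2. Every comparison with normal is therefore given with and without normal 3. The second form leaves 2 nearly equal normal arrays and was chosen knowing the values, so its p-values are too small.

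Promoter sequences show what some of the genes have in common beyond their function. RefSeq promoter windows of 300 bases (GRCm38.p6, 250 bases before a transcription start to 50 after it) were at hand for 35 of the 42 genes. An E2F-type motif, spelled TTTCGCGC, TTTGGCGC, TTTCCCGC or TTTGCCGC on either strand, was in the window of 14 of these 35 genes (40%) and of 4.33% of the 10242 tested genes with a window. The 35 include Pola1 and Pole2, which are not among the tested genes and both held the motif. Counted by transcription start, it was in 34.1% of the 41 windows of these genes and in 2.26% of all 32851 windows. CCAAT, the core letters of the NF-Y box, was in 22 of the 35 (62.9%) against 42.5% of tested genes and 37.4% of all windows. TTTGAA, a motif of promoters active late in the cell cycle, was in 5 of the 35 (14.3%) against 14.8% of tested genes and 17.9% of all windows. Among genes with a window and a measurement, the 12 with an E2F-type match had a median difference of 1.92 between dysplasia and normal, and the 21 without one had 1.48. The ranges, 0.63 to 2.84 and 0.20 to 3.14, overlapped. For CCAAT the medians ran the other way, 1.43 in the 21 genes with it and 1.92 in the 12 without, as for TTTGAA, with 1.18 in 5 and 1.79 in 28. A match describes letters and shows no binding, and a window without one says nothing about a factor.

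Printed here are the windows of the gene with the largest difference between dysplasia and normal in each of the 6 roles, followed by those of Orc2 and Dut, the 2 genes with the smallest. Each is printed 5′ to 3′ on the gene's strand, and capitals mark E2F-type motifs and CCAAT on either strand. Orc2 has a further start, which is not printed.
Mcm6, chr1:128359656-128359955, minus strand: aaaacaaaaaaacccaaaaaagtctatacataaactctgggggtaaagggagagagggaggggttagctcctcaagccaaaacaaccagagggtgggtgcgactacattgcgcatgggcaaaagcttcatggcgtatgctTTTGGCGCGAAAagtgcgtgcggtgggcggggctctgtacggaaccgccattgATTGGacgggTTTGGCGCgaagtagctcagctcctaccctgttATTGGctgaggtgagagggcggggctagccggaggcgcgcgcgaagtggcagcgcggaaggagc
Cdt1, chr8:122567765-122568064, plus strand: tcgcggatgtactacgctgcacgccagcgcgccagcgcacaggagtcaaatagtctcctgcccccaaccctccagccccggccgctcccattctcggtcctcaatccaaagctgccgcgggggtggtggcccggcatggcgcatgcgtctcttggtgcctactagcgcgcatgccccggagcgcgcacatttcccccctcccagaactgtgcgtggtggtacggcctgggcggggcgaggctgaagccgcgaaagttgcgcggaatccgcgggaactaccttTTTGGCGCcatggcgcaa
Pold1, chr7:44548766-44549065, minus strand: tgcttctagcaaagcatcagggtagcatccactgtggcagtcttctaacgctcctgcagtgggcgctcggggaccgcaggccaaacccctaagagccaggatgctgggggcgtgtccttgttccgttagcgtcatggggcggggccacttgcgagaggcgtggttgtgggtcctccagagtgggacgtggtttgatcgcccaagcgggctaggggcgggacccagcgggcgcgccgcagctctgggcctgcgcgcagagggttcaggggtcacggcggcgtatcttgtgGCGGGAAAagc
Rfc4, chr16:23127681-23127980, minus strand: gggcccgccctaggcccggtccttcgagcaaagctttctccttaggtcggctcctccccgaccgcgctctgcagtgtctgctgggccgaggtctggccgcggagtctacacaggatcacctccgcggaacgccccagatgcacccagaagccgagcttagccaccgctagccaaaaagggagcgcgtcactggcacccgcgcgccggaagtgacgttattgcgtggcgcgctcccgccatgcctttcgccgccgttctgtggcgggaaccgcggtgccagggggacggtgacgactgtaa
Tk1, chr11:117825965-117826264, minus strand: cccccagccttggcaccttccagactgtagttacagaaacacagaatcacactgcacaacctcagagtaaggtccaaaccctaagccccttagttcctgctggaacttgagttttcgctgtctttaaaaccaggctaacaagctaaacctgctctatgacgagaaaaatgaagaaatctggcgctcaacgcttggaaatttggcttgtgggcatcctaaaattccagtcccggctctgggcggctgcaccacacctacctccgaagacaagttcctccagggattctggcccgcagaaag
Chaf1b, chr16:93883651-93883950, plus strand: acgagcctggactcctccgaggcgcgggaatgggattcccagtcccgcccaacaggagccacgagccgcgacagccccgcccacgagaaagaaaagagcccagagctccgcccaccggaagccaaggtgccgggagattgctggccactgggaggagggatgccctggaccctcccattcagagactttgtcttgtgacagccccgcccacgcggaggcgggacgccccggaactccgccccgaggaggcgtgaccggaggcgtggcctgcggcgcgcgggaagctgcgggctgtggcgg
Orc2, chr1:58505060-58505359, minus strand: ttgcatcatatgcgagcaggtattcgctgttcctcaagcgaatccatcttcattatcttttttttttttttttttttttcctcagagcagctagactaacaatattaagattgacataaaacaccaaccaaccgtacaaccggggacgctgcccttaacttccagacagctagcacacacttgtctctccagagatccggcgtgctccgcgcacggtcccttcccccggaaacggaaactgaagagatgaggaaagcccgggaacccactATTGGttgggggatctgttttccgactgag
Dut, chr2:125247265-125247564, plus strand: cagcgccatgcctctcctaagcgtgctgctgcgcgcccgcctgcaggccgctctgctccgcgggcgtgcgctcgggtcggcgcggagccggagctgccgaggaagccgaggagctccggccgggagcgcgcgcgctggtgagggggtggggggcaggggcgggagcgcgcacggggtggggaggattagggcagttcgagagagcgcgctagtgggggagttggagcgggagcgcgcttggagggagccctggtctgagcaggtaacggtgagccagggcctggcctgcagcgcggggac
The Mcm6 window held E2F-type motifs whose first bases lie at -110, -106 and -47 from the start (base 1), of which the first and second overlap on opposite strands, and CCAAT on the opposite strand at -57 and -14. Cdt1 held 1 E2F-type motif at position 33 and Pold1 1 at position 40. Orc2 held CCAAT on the opposite strand at position 21. The windows of Rfc4, Tk1, Chaf1b and Dut held neither motif.

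Dysplastic glands were first compared with normal ones. Replication genes were low on normal 1 and 2 and high on the other arrays, normal 3 among them. Their median log2 intensity was 7.68, 7.99 and 10.98 on normal 1, 2 and 3, 11.04, 10.85 and 10.03 on the dysplasia arrays and 10.52, 10.94 and 10.37 on the adenocarcinoma arrays. The median of all tested genes stayed between 8.36 and 8.42 on every array. For 39 of 40 genes both normal 1 and normal 2 lay below each of the 7 other arrays, against 21.2% of all tested genes. Orc2 was the exception.

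On all 9 arrays the difference between dysplasia and normal was above 0 for 40 of 40 genes, with a median of 1.65 and a range of 0.20 to 3.14. Of all tested genes 53.9% were above 0, with a median of 0.04. None of the 40 passed in limma (lowest adjusted p = 0.16), as for all genes (0.0% passed). At an unadjusted p under 0.05, 19 of 40 were higher, against 12.1% of all genes. The 3 dysplasia arrays lay wholly above the 3 normal arrays for 3 of 40 genes, Mcm4, Rfc3 and Dtl, or 7.5%, where the share of all genes was 12.4%. For the other 37, normal 3 was above the lowest dysplasia array, as it was for 75.8% of all genes. Without normal 3, 36 of 40 rose (12.5% of all genes did), with a median of 2.55, and none fell, where 11.3% of all genes did. At least 2-fold higher were 37 of 40, against 11.5% of all genes. Orc2, Gins3, Pold2 and Dut did not pass there.

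**Figure D1:**
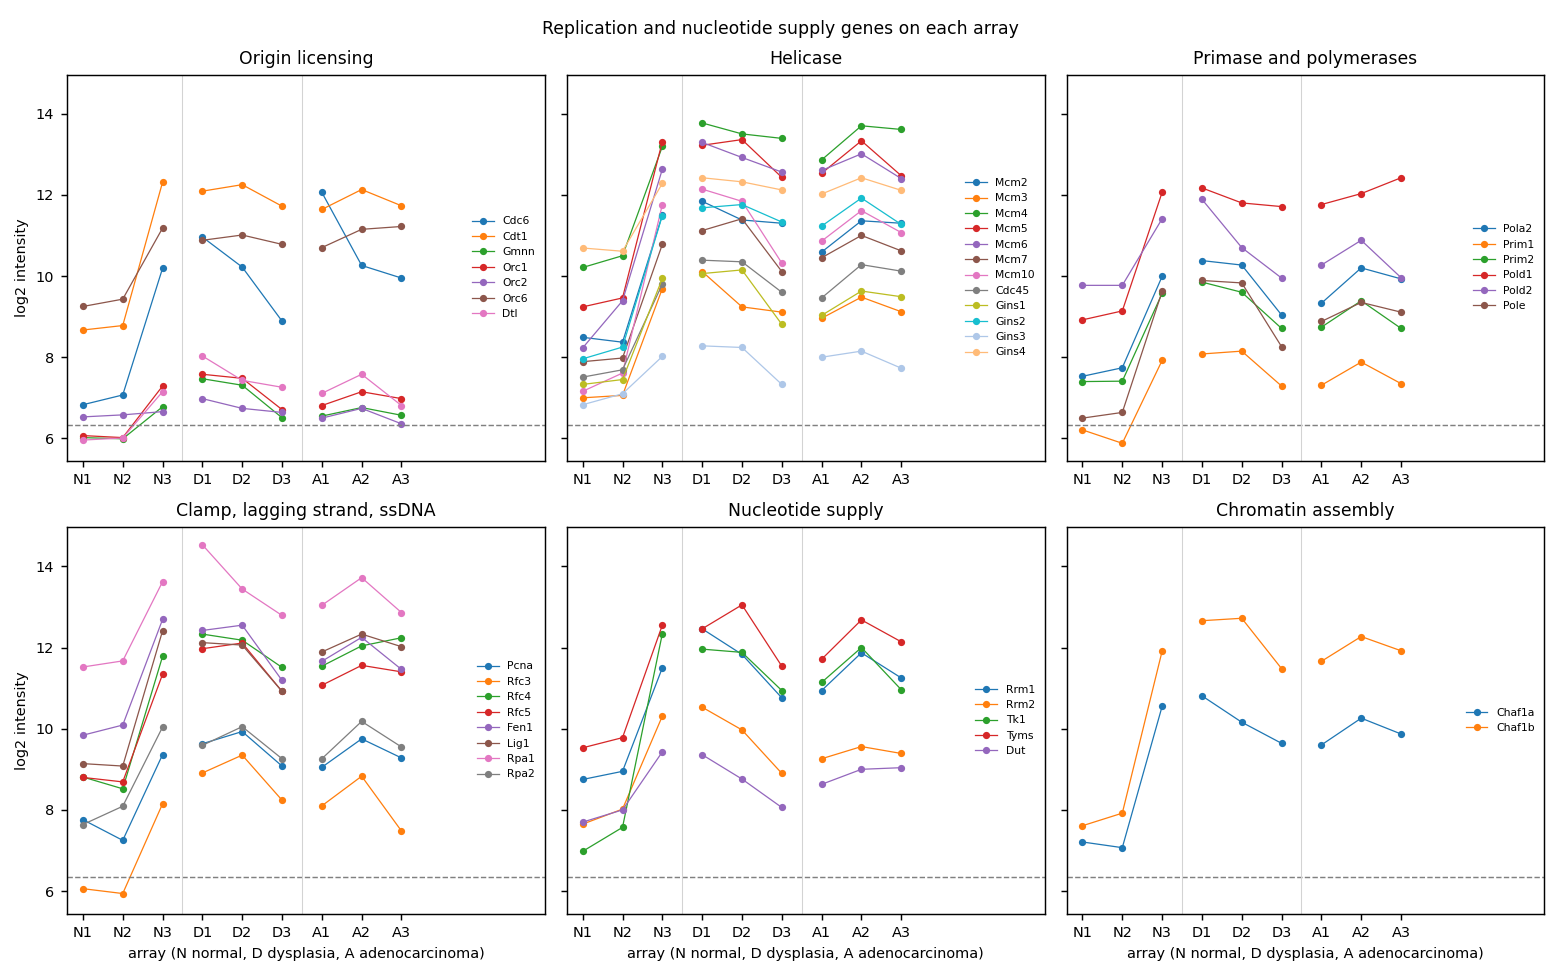
Log2 intensity of the 40 measured genes (y axis) on each of the 9 arrays (x axis), in 6 panels by role; each point is the brightest probe of a gene on 1 array, lines join the arrays of a group without implying an order, and the dashed line is the background level of 6.34. Normal 1 and 2 (N1, N2) lie below the other 7 arrays for every gene drawn except Orc2.

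Origin licensing was uneven. The loading factors Cdt1 and Cdc6 differed most, and the origin subunit Orc2 did not differ beyond its spread. Cdt1, which brings the MCM ring to origins, was at 8.67, 8.78 and 12.31 in normal glands, 12.09, 12.25 and 11.72 in dysplasia and 11.64, 12.13 and 11.73 in adenocarcinoma. Normal 3 was the highest of all 9 arrays, and normal 1 and 2 were the lowest. The difference of dysplasia from normal was 2.10 ± 0.87 (SE, adjusted p = 0.21) on all 9 arrays and 3.30 ± 0.22 (adjusted p = 0.00086) without normal 3.

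Cdc6, the ATPase that works with CDT1 in loading, was at 6.83, 7.07 and 10.19 in normal glands, 10.96, 10.22 and 8.89 in dysplasia and 12.06, 10.26 and 9.95 in adenocarcinoma. Adenocarcinoma 1 was the highest array, which held for no other gene of the 40, and dysplasia 3 was the lowest array outside normal 1 and 2. Its difference was 1.99 ± 1 (SE, adjusted p = 0.27), or 3.07 ± 0.76 (adjusted p = 0.028) without normal 3. Dtl, the substrate receptor of the ubiquitin ligase that removes CDT1 during S phase, was at 5.96, 6.01 and 7.15 in normal glands, 8.03, 7.43 and 7.26 in dysplasia and 7.11, 7.58 and 6.81 in adenocarcinoma. The dysplasia arrays did not overlap the normal ones, of which 1 and 2 were below background. Its difference was 1.20 ± 0.38 (SE, adjusted p = 0.17), and without normal 3 Dtl rose at least 2.35-fold against the background level (adjusted p = 0.011).

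Orc6, a subunit of the origin recognition complex, was at 9.25, 9.43 and 11.18 in normal glands, 10.88, 11.01 and 10.78 in dysplasia and 10.70, 11.15 and 11.22 in adenocarcinoma. Normal 1 and 2 were again the lowest arrays, and its difference was 0.94 ± 0.47 (SE, adjusted p = 0.27) and 1.55 ± 0.20 (adjusted p = 0.0035) without normal 3. Orc2, another subunit, was at 6.53, 6.58 and 6.66 in normal glands, 6.98, 6.74 and 6.64 in dysplasia and 6.50, 6.74 and 6.36 in adenocarcinoma. All 9 values lay near background and the groups overlapped, with a difference of 0.20 ± 0.16 (SE, adjusted p = 0.49) and 0.23 ± 0.18 (adjusted p = 0.39) without normal 3. Orc1, the subunit whose level changes over the cell cycle, and Gmnn, geminin, the inhibitor of CDT1, were below background on normal 1 and 2. They stood at 7.29 and 6.78 on normal 3 and at 6.51 to 7.58 in dysplasia. Without normal 3 they rose at least 1.89-fold and 1.69-fold in dysplasia (adjusted p = 0.021 and 0.032).

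The helicase genes held many of the widest gaps between arrays. The 6 subunits of the MCM ring, Mcm2 to Mcm7, differed by 1.57 to 2.84 on all 9 arrays and rose by 2.45 to 4.12 without normal 3. Mcm6 was at 8.23, 9.39 and 12.63 in normal glands, 13.29, 12.92 and 12.56 in dysplasia and 12.60, 13.01 and 12.40 in adenocarcinoma. Normal 1 and 2 differed by 1.16 here, the 1 gene of the 40 where they were over 2-fold apart. Its difference was 2.84 ± 0.96 (SE, adjusted p = 0.17), or 4.12 ± 0.39 (adjusted p = 0.0014) without normal 3, a 17.3-fold rise. Mcm5 was at 9.24, 9.46 and 13.31 in normal glands, 13.22, 13.36 and 12.43 in dysplasia and 12.53, 13.33 and 12.47 in adenocarcinoma. Normal 3 lay inside the range of the dysplasia arrays, and the difference was 2.33 ± 0.98 (SE, adjusted p = 0.22), or 3.65 ± 0.36 (adjusted p = 0.0017) without normal 3.

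Mcm10, which helps activate the loaded helicase, was at 7.16, 7.61 and 11.76 in normal glands, 12.14, 11.84 and 10.32 in dysplasia and 10.86, 11.61 and 11.07 in adenocarcinoma. Dysplasia 3 was the lowest array outside normal 1 and 2, and the difference was 2.59 ± 1.12 (SE, adjusted p = 0.22), or 4.05 ± 0.53 (adjusted p = 0.0037) without normal 3. Gins2, of the GINS complex that binds the ring, was at 7.96, 8.25 and 11.49 in normal glands, 11.68, 11.76 and 11.33 in dysplasia and 11.23, 11.92 and 11.27 in adenocarcinoma. Normal 3 fell among the dysplasia arrays, within 0.3 of each, and the difference was 2.36 ± 0.83 (SE, adjusted p = 0.17), or 3.49 ± 0.26 (adjusted p = 0.001) without normal 3.

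Its partner Gins3 was at 6.83, 7.10 and 8.02 in normal glands, 8.28, 8.24 and 7.33 in dysplasia and 8, 8.15 and 7.73 in adenocarcinoma. Dysplasia 3 lay closer to normal 2 than to the other dysplasia arrays. The difference was 0.63 ± 0.37 (SE, adjusted p = 0.33) and 0.98 ± 0.31 (adjusted p = 0.062) without normal 3, so the 4 GINS genes did not all pass there. Gins1, Gins4, Cdc45, the third helicase component, and Mcm2, Mcm3, Mcm4 and Mcm7 each rose without normal 3, by 1.64 (Gins4) to 3.20 (Mcm4), with adjusted p-values of 0.0012 to 0.01. On all 9 arrays their differences ran from 1.09 to 2.25 (adjusted p = 0.17 to 0.26).

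Of the 6 measured primase and polymerase genes, 5 rose without normal 3, and the accessory subunit Pold2 did not pass. Pold1, the catalytic subunit of polymerase delta, was at 8.92, 9.14 and 12.06 in normal glands, 12.17, 11.80 and 11.71 in dysplasia and 11.76, 12.03 and 12.42 in adenocarcinoma. Adenocarcinoma 3 was the highest array, and the difference of dysplasia from normal was 1.85 ± 0.74 (SE, adjusted p = 0.2), or 2.86 ± 0.24 (adjusted p = 0.0012) without normal 3. Pold2 was at 9.77, 9.77 and 11.41 in normal glands, 11.89, 10.70 and 9.95 in dysplasia and 10.27, 10.88 and 9.96 in adenocarcinoma. Dysplasia 3 and adenocarcinoma 3 came within 0.2 of normal 1 and 2, the groups overlapped, and the difference was 0.53 ± 0.60 (SE, adjusted p = 0.62) and 1.07 ± 0.54 (adjusted p = 0.19) without normal 3.

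Pole, the catalytic subunit of polymerase epsilon, was at 6.50, 6.64 and 9.62 in normal glands, 9.89, 9.83 and 8.26 in dysplasia and 8.88, 9.35 and 9.11 in adenocarcinoma. Normal 3 was above dysplasia 3 and every adenocarcinoma array, and the difference was 1.74 ± 0.82 (SE, adjusted p = 0.25), or 2.76 ± 0.48 (adjusted p = 0.0087) without normal 3. Pola2, the regulatory subunit of polymerase alpha, was at 7.53, 7.74 and 9.99 in normal glands, 10.38, 10.27 and 9.04 in dysplasia and 9.33, 10.20 and 9.93 in adenocarcinoma. Its difference was 1.48 ± 0.67 (SE, adjusted p = 0.24), and it rose by 2.26 ± 0.44 (adjusted p = 0.013) without normal 3. Prim2, the large primase subunit, was at 7.40, 7.41 and 9.57 in normal glands, 9.85, 9.60 and 8.71 in dysplasia and 8.74, 9.39 and 8.71 in adenocarcinoma. Its difference was 1.26 ± 0.60 (SE, adjusted p = 0.25), or 1.99 ± 0.37 (adjusted p = 0.011) without normal 3. Prim1, the catalytic primase subunit, was below background on normal 1 and 2, at 7.92 on normal 3 and at 7.29 to 8.15 in dysplasia. Without normal 3 it rose at least 2.83-fold (adjusted p = 0.0093).

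All 8 genes of the clamp, clamp loader, lagging strand and single-stranded DNA binding rose without normal 3. The loader subunits Rfc3, Rfc4 and Rfc5 had the largest differences among them. Rfc4 was at 8.81, 8.52 and 11.78 in normal glands, 12.33, 12.18 and 11.51 in dysplasia and 11.54, 12.04 and 12.24 in adenocarcinoma. Its 3 dysplasia and 3 adenocarcinoma values overlapped closely, and its difference from normal in dysplasia was 2.30 ± 0.78 (SE, adjusted p = 0.17), or 3.34 ± 0.31 (adjusted p = 0.0014) without normal 3. Rfc3 was at 6.06, 5.94 and 8.15 in normal glands, 8.91, 9.35 and 8.24 in dysplasia and 8.10, 8.83 and 7.48 in adenocarcinoma. Normal 1 and 2 were below background and every dysplasia array lay above every normal one. The difference was 2.12 ± 0.63 (SE, adjusted p = 0.16), the lowest adjusted p of the 40 genes, and without normal 3 Rfc3 rose at least 5.62-fold (adjusted p = 0.0062).

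Rfc5 was at 8.80, 8.69 and 11.34 in normal glands, 11.97, 12.11 and 10.92 in dysplasia and 11.07, 11.56 and 11.40 in adenocarcinoma. Its difference was 2.06 ± 0.68 (SE, adjusted p = 0.17), or 2.92 ± 0.36 (adjusted p = 0.0031) without normal 3. Lig1, the ligase that seals Okazaki fragments, was at 9.14, 9.08 and 12.41 in normal glands, 12.12, 12.06 and 10.92 in dysplasia and 11.89, 12.33 and 12.02 in adenocarcinoma. Normal 3 was the highest array, dysplasia 3 was over 1 log2 unit below the other dysplasia arrays, and the difference was 1.49 ± 0.84 (SE, adjusted p = 0.32), or 2.59 ± 0.37 (adjusted p = 0.0046) without normal 3. Rpa2, of the single-stranded DNA binding complex, was at 7.64, 8.09 and 10.04 in normal glands, 9.59, 10.05 and 9.26 in dysplasia and 9.26, 10.18 and 9.55 in adenocarcinoma. Its difference was the smallest of this role, 1.04 ± 0.59 (SE, adjusted p = 0.32), or 1.76 ± 0.34 (adjusted p = 0.012) without normal 3. The clamp gene Pcna, the flap endonuclease Fen1 and Rpa1 differed by 1.18 to 1.43 on all 9 arrays (adjusted p = 0.18 to 0.37) and rose by 1.99 to 2.09 without normal 3 (adjusted p = 0.0064 to 0.028).

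Of the 5 nucleotide supply genes, 4 rose without normal 3 and Dut did not pass. Tk1, thymidine kinase of the salvage route, was at 6.98, 7.57 and 12.34 in normal glands, 11.96, 11.88 and 10.94 in dysplasia and 11.14, 12 and 10.96 in adenocarcinoma. Normal 3 was the highest array and stood 5.36 above normal 1, the widest such gap of the 40 genes. The difference was 2.63 ± 1.24 (SE, adjusted p = 0.25), or 4.32 ± 0.43 (adjusted p = 0.0017) without normal 3. Rrm1, the large subunit of ribonucleotide reductase, was at 8.75, 8.95 and 11.50 in normal glands, 12.46, 11.83 and 10.76 in dysplasia and 10.94, 11.87 and 11.25 in adenocarcinoma. Its difference was 1.95 ± 0.75 (SE, adjusted p = 0.19), or 2.83 ± 0.49 (adjusted p = 0.0087) without normal 3.

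Rrm2, the small subunit, was at 7.65, 8.02 and 10.31 in normal glands, 10.53, 9.97 and 8.90 in dysplasia and 9.26, 9.56 and 9.39 in adenocarcinoma. Normal 3 exceeded all arrays but dysplasia 1, and the difference was 1.14 ± 0.69 (SE, adjusted p = 0.35), or 1.96 ± 0.44 (adjusted p = 0.02) without normal 3. Tyms, which makes thymidylate, was at 9.53, 9.78 and 12.55 in normal glands, 12.46, 13.05 and 11.54 in dysplasia and 11.71, 12.68 and 12.14 in adenocarcinoma. Its difference was 1.73 ± 0.78 (SE, adjusted p = 0.24), or 2.69 ± 0.46 (adjusted p = 0.0082) without normal 3. Dut, the enzyme that removes dUTP, was at 7.70, 8 and 9.43 in normal glands, 9.36, 8.76 and 8.06 in dysplasia and 8.63, 9 and 9.04 in adenocarcinoma. On the probe used, dysplasia 3 lay next to normal 2 and normal 3 was the highest array. The difference was 0.35 ± 0.48 (SE, adjusted p = 0.69) and 0.88 ± 0.36 (adjusted p = 0.12) without normal 3. A second, dimmer probe gave 1.04 on all 9 arrays.

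The chromatin assembly factor deposits histones behind the fork. Chaf1b was at 7.61, 7.92 and 11.91 in normal glands, 12.66, 12.72 and 11.48 in dysplasia and 11.66, 12.27 and 11.92 in adenocarcinoma. Its difference, 3.14 ± 1.03 (SE, adjusted p = 0.17), was the largest of the 40 on all 9 arrays, and it rose 23-fold without normal 3, 4.52 ± 0.40 (adjusted p = 0.0012). Chaf1a, the large subunit, was at 7.21, 7.07 and 10.55 in normal glands, 10.81, 10.16 and 9.64 in dysplasia and 9.60, 10.26 and 9.87 in adenocarcinoma. Its difference was 1.93 ± 0.86 (SE, adjusted p = 0.23), or 3.06 ± 0.35 (adjusted p = 0.0025) without normal 3.

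**Figure D2:**
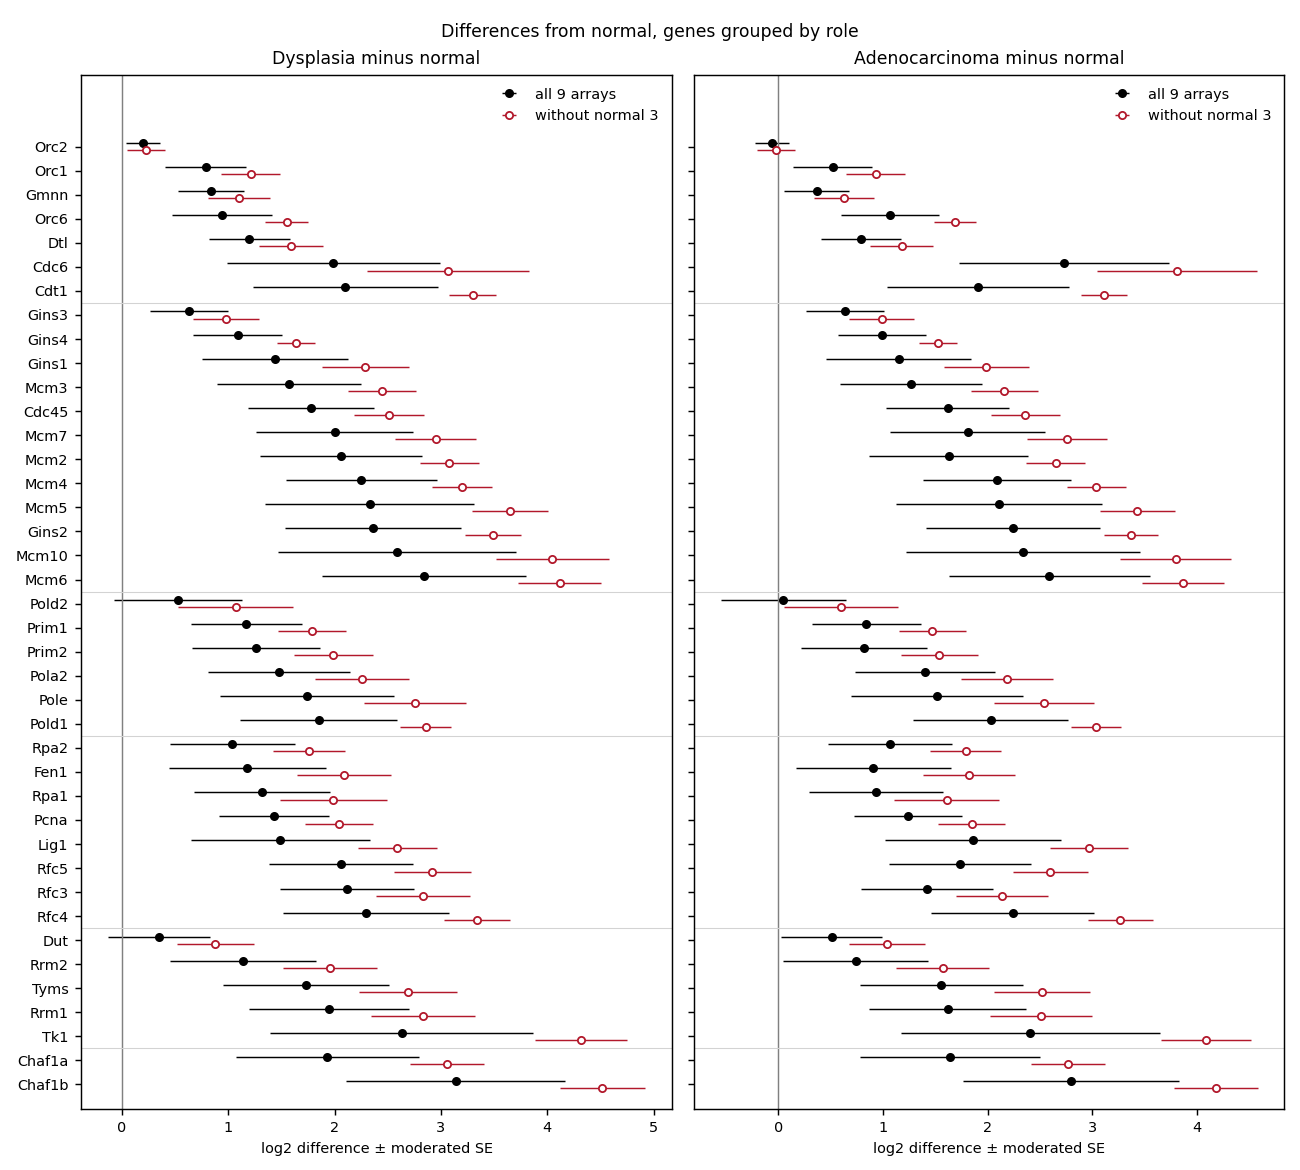
Log2 difference from normal (x axis) in dysplasia (left) and adenocarcinoma (right) for the 40 genes (y axis, grouped by role in the order of the text, with thin lines between roles); filled points use all 9 arrays and open points leave out normal 3, with bars of 1 moderated SE. Leaving out normal 3 moves every point to the right, and Orc2 stays near 0 in both panels.

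Adenocarcinomas were then compared with normal glands. The difference was above 0 for 39 of 40 genes, with a median of 1.47. Of all tested genes 51.0% were above 0, with a median of 0.01. None passed on all 9 arrays (lowest adjusted p = 0.27), again as for all genes (0.0%), and at an unadjusted p under 0.05 12 of 40 were higher, against 8.06% of all genes. No gene had all 3 adenocarcinoma arrays above all 3 normal arrays, where 10.4% of all genes did. Normal 3 lay above the lowest adenocarcinoma array for 40 of 40 genes, against 75.2% of all genes, and above all 3 for 17, against 26.6%. Without normal 3, 32 of 40 rose, against 7.60% of all genes, with a median of 2.27, and none fell, against 7.86%. The 8 that did not pass were Orc2, Gins3, Pold2 and Dut, as in dysplasia, and Gmnn, Orc1, Rpa1 and Rrm2.

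Chaf1b, Cdc6 and Mcm6 had the largest differences of adenocarcinoma from normal on all 9 arrays. These were 2.80 ± 1.03 (SE, adjusted p = 0.28) for Chaf1b, 2.73 ± 1 (SE, adjusted p = 0.28) for Cdc6 and 2.59 ± 0.96 (SE, adjusted p = 0.28) for Mcm6. Without normal 3 the rises were 4.18 ± 0.40 (adjusted p = 0.002), 3.81 ± 0.76 (adjusted p = 0.019) and 3.87 ± 0.39 (adjusted p = 0.0024). Tk1 rose by 4.09 ± 0.43 (adjusted p = 0.0028) and Mcm10 by 3.80 ± 0.53 (adjusted p = 0.0064) there. At the other end, Pold2 differed by 0.05 ± 0.60 (SE, adjusted p = 0.97) and Orc2 by -0.06 ± 0.16 (SE, adjusted p = 0.89) on all 9 arrays. The comparisons with dysplasia and with adenocarcinoma share their normal arrays, so they are not independent of each other.

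Adenocarcinoma and dysplasia, compared directly, did not differ in these genes beyond the spread. None of the 40 passed (lowest adjusted p = 0.89), nor did any gene tested (0.0%). At an unadjusted p under 0.05 none of the 40 was higher or lower, against 2.05% and 2.18% of all genes, and for none did the groups fail to overlap, against 4.03% higher and 6.55% lower. The median difference was -0.24, against -0.05 over all genes, with 7 of 40 genes above 0, against 44.0% of all genes. The sign of 19 of the 40 turned when some single array was left out. The 2 highest were Cdc6 at 0.73 (95% interval -1.56 to 3.03) and Lig1 at 0.38 (95% interval -1.55 to 2.31), and the lowest was Rfc3 at -0.70 (95% interval -2.15 to 0.76). Pold2, at -0.47 (95% interval -1.85 to 0.90), and Gmnn, also at -0.47, came next.

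The model on all 9 arrays takes its spread from the normal group too. Its 95% interval had a median half-width of 1.59 and lay within a 2-fold change either way for Orc2 and Gins3 alone. With only the 6 arrays compared, the median half-width was 0.84, the interval lay within 2-fold for 14 genes, including Mcm4, Mcm6, Cdt1, Gins2, Rfc4 and Pcna, and again none had an unadjusted p under 0.05. For the rest, a 2-fold difference in one direction or both is inside the interval.

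**Figure D3:**
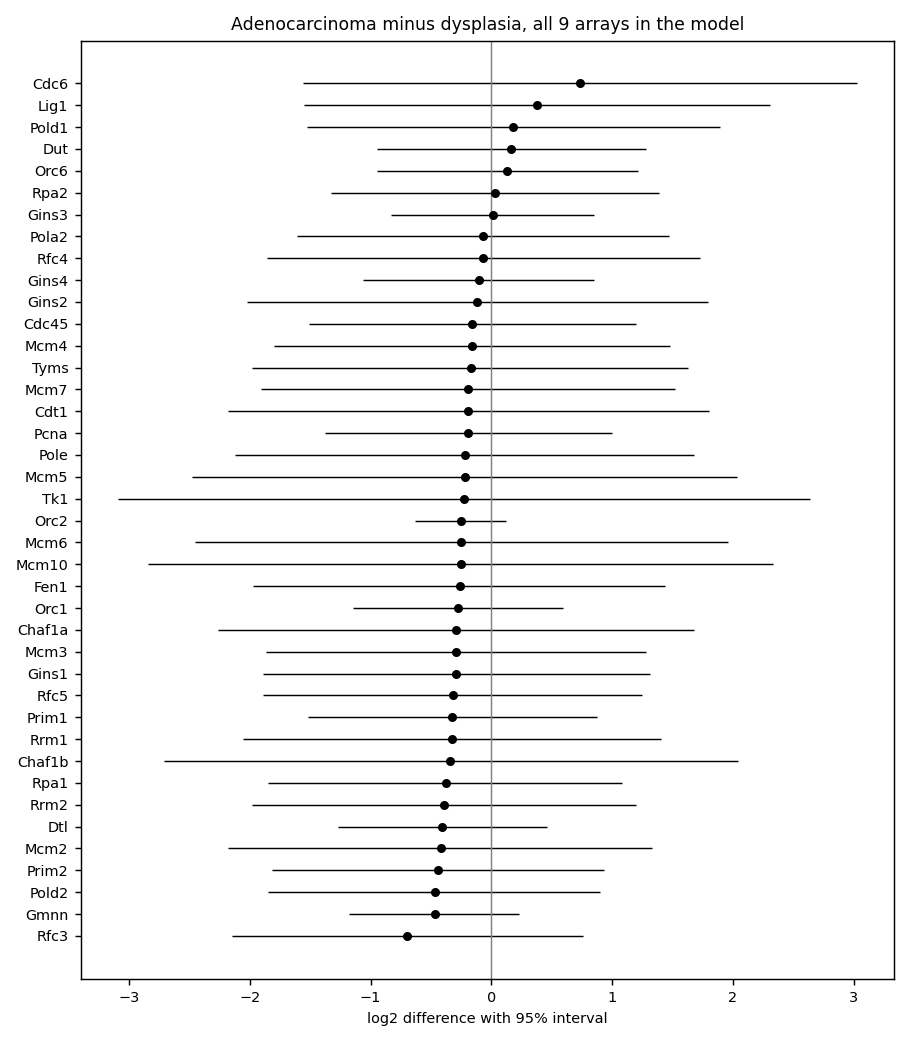
Log2 difference of adenocarcinoma minus dysplasia (x axis) for each of the 40 genes (y axis, ordered by value), with the 95% interval from the model on all 9 arrays. Every interval includes 0, and the points run from -0.70 (Rfc3) to 0.73 (Cdc6).

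In each group 1 array held the same end for most of the genes. Normal 3 was the highest normal array for 40 of 40 genes, where it was for 45.2% of all tested genes, and the lowest was normal 1 for 28 and normal 2 for 12. Dysplasia 3 was the lowest dysplasia array for 40 of 40, against 43.6% of all genes, and dysplasia 1 was the highest for 26 and dysplasia 2 for 14. Adenocarcinoma 2 was the highest of its group for 35 of 40, against 40.4% of all genes. The exceptions were Cdc6, highest on adenocarcinoma 1, and Orc6, Rfc4, Pold1 and Dut, highest on adenocarcinoma 3. The lowest of the group was adenocarcinoma 1 for 28 and adenocarcinoma 3 for 12. These genes share their arrays and are not independent of each other. The SD over 3 arrays had a median of 1.52 in normal, 0.55 in dysplasia and 0.34 in adenocarcinoma for the 40 genes, and 0.29, 0.27 and 0.27 for all tested genes.

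Several genes were read by more than 1 probe, which gives another measurement on the same arrays. Of 73 probes of these genes that passed the background filter, 33 were further probes, of 17 genes. Dysplasia was above normal for 32 of the 33, and so was adenocarcinoma, and for 30 both normal 1 and normal 2 lay below the other 7 arrays. For Mcm6 the 3 further probes gave differences of 2.19, 2.31 and 0.91 between dysplasia and normal, the last from a probe below background on normal 1 and 2. The second probe of Orc2 gave -0.02, close to 0 as the first. Some further probes gave much less than the first: the 3 further probes of Tk1 gave 0.25, 0.28 and 1.32, and those of Rfc5 0.15 and 0.50. Others gave more. The second probe of Dut gave 1.04, where the first gave 0.35. It read 6.45, 6.47 and 7.93 in normal glands and 8.07, 8.03 and 7.89 in dysplasia. The small difference of Dut therefore depends on the probe used. The 9 probes that did not pass the filter, of Cdc45, Cdc6, Dtl, Mcm10, Orc1, Pola1 and Pole2, reached at most 6.60 on any array.

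Other genes of the same processes were counted from lists, each to be read against all tested genes, of which, without normal 3, 12.5% rose and 11.3% fell in dysplasia and 7.60% rose and 7.86% fell in adenocarcinoma. Of 20 measured genes of origin firing and the fork, 14 rose in dysplasia and 12 in adenocarcinoma without normal 3, and none fell. Their median difference was 1.39 and 1.23 on all 9 arrays, where 0 passed in either comparison. Top2a, the topoisomerase that untangles replicated DNA, was at 7.20, 7.96 and 12.25 in normal glands, 12.68, 11.84 and 11 in dysplasia and 11.26, 12.21 and 10.75 in adenocarcinoma, low on normal 1 and 2 only. It differed by 2.70 ± 1.20 (SE, adjusted p = 0.23) in dysplasia and by 4.26 ± 0.58 (adjusted p = 0.0041) without normal 3. Cdc7, the kinase that fires origins, was at 7.32, 7.59 and 10.37 in normal glands, 10.97, 11.40 and 10.25 in dysplasia and 9.96, 10.25 and 10.22 in adenocarcinoma. Its difference was 2.44 ± 0.74 (SE, adjusted p = 0.16), or 3.42 ± 0.32 (adjusted p = 0.0015) without normal 3.

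Of 8 measured genes that restore chromatin and DNA methylation after the fork, 5 rose without normal 3 in each comparison, with median differences of 1.10 and 0.78 on all 9 arrays and 0 past the threshold there. Uhrf1, which recognises newly copied methylated DNA, was at 9.70, 9.86 and 13.53 in normal glands, 14.04, 13.79 and 13.16 in dysplasia and 12.97, 13.68 and 13.34 in adenocarcinoma. It differed by 2.64 ± 0.92 (SE, adjusted p = 0.17) in dysplasia. Dnmt1, the maintenance methyltransferase, was at 9.03, 9.25 and 11.57 in normal glands, 11.54, 11.98 and 11.08 in dysplasia and 11.30, 11.86 and 11.71 in adenocarcinoma. It differed by 1.58 ± 0.62 (SE, adjusted p = 0.2). Without normal 3 the differences of Uhrf1 and Dnmt1 were 3.89 ± 0.31 (adjusted p = 0.0011) and 2.39 ± 0.29 (adjusted p = 0.003).

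Another list held 11 genes, further replisome subunits together with Ssbp1, the single-stranded DNA binding protein of mitochondria. Of the 11, 3 rose in dysplasia without normal 3 (Orc4, Rfc2 and Rpa3) and 2 in adenocarcinoma (Rfc2 and Rpa3). The median differences of this list were 0.47 and 0.42 on all 9 arrays, with 0 past the threshold. Rfc2, a further clamp loader subunit, was at 10.59, 10.62 and 12.54 in normal glands, 12.99, 13.05 and 12.60 in dysplasia and 12.21, 12.57 and 12.55 in adenocarcinoma. It differed by 1.63 ± 0.49 (SE, adjusted p = 0.16) in dysplasia. Rpa3, of the single-stranded DNA binding complex, was at 9.92, 9.87 and 11.53 in normal glands, 11.64, 12 and 11.70 in dysplasia and 11.41, 12.04 and 11.79 in adenocarcinoma. It differed by 1.34 ± 0.43 (SE, adjusted p = 0.17).

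Of 13 other deoxynucleotide and folate genes, 3 rose and 1 fell in dysplasia and 2 rose and 1 fell in adenocarcinoma without normal 3, with medians of 0.28 and 0.21 on all 9 arrays. The 1 that fell, Cmpk1, is 1 of 13, near the share of all genes. Dtymk, which makes dTDP, was at 9.87, 9.52 and 11.81 in normal glands, 12.38, 11.95 and 11.79 in dysplasia and 11.36, 12.14 and 11.68 in adenocarcinoma. It differed by 1.64 ± 0.55 (SE, adjusted p = 0.17) in dysplasia. Dctpp1, a dCTP hydrolase, was at 10.47, 10.42 and 12.36 in normal glands, 12.82, 12.78 and 11.62 in dysplasia and 12.12, 12.72 and 12.42 in adenocarcinoma. It differed by 1.32 ± 0.55 (SE, adjusted p = 0.22). Of 15 genes of de novo purine and pyrimidine synthesis, 4 rose and 2 fell in dysplasia and 1 rose and 1 fell in adenocarcinoma without normal 3, with medians of 0.26 and 0.11. The counts in adenocarcinoma and the 2 that fell in dysplasia are near the shares of all genes. No gene of these lists passed on all 9 arrays.

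The gene that differed most in that last list, Impdh1, an IMP dehydrogenase, was lower in dysplasia than in normal glands. It was at 10.40, 10.01 and 8.47 in normal glands, 8.11, 7.70 and 7.38 in dysplasia and 7.76, 7.99 and 7.65 in adenocarcinoma, so the dysplasia and adenocarcinoma arrays were all below the normal ones. The difference was -1.89 ± 0.46 (SE, adjusted p = 0.15) in dysplasia, and without normal 3 it fell by 2.47 on the log2 scale (adjusted p = 0.0018). Pfas, of purine synthesis, was at 8.71, 8.84 and 10.26 in normal glands, 11.35, 10.68 and 9.99 in dysplasia and 9.57, 10.47 and 9.56 in adenocarcinoma. It differed by 1.41 ± 0.51 (SE, adjusted p = 0.18) in dysplasia.

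Markers of several cell types differed between the same arrays, being higher on normal 1 and 2 than on normal 3, but not every list did so as a whole. Their part in the differences of the replication genes was not tested. Normal 3 was below normal 1 and 2 for 8 of 11 acinar and 5 of 6 tubule markers, against 43.4% of all tested genes. For macrophage markers it was 3 of 5, for duct markers 5 of 10 and for endothelial markers 2 of 6, nearer that share. The summed duct intensity was 63481, 75886 and 70265 on normal 1, 2 and 3, but the median of the duct list was 11.87, 12.25 and 9.40. The duct markers did not move together. Slc12a2, the brightest, was at 15, 15.20 and 15.43 on these arrays, and Elf5 was at 12.42, 12.62 and 7.96. In bulk tissue, fewer cells of a type and less RNA per cell cannot be told apart. All 11 measured acinar markers and all 6 tubule markers were above background on every normal array, and the median of the acinar list was 15.32, 15.24 and 13.73 there. The summed acinar intensity was 169936 to 339528 in normal, 50152 to 70604 in dysplasia and 58056 to 272151 in adenocarcinoma. For the tubule list it was 126183 to 248246 in normal, 5399 to 70023 in dysplasia and 16331 to 178398 in adenocarcinoma. The acinar median was 9.55, 9.34 and 10.30 in dysplasia, but its markers did not move together. Amy1 was at 15.38, 15.14 and 13.73 in normal glands and 9.06, 7.26 and 6.74 in dysplasia. Smgc was at 11.93, 13.56 and 12.57 in normal glands and 14.71, 12.72 and 15.07 in dysplasia. Aqp5 was at 13.87, 14.14 and 14.63 in normal glands and 13.72, 14.02 and 14.40 in dysplasia. Adenocarcinoma 1 had the highest acinar and tubule sums outside normal 1 and 2.

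Normal 3 was below normal 1 and 2 for all 5 measured adipocyte markers, all 4 B and plasma cell markers, all 4 T cell markers, all 5 basal and myoepithelial markers, all 5 skeletal muscle markers and all 6 fibroblast markers. The share of all tested genes was 43.4%. Summed adipocyte intensity was 1419 to 18895 in normal, 365 to 1099 in dysplasia and 422 to 5036 in adenocarcinoma. For B and plasma cells it was 567 to 5573 in normal, 325 to 471 in dysplasia and 324 to 1939 in adenocarcinoma. For T cells it was 561 to 1965 in normal, 330 to 465 in dysplasia and 391 to 1203 in adenocarcinoma, for basal and myoepithelial cells 5857 to 31251 in normal, 2097 to 10746 in dysplasia and 5985 to 23299 in adenocarcinoma, and for fibroblasts 6111 to 31414 in normal, 1293 to 11408 in dysplasia and 4279 to 27087 in adenocarcinoma. On normal 3, 1 marker each of the adipocyte, B and plasma cell, basal and myoepithelial, skeletal muscle and endothelial lists was at or below background. Dysplasia 3 had the highest macrophage sum of the 9, 43932. The other dysplasia arrays had 3546 and 10009, the normal arrays 8686 to 11805 and the adenocarcinoma arrays 19010 to 27270. Of the 5 measured macrophage markers only Cd14 was highest on dysplasia 3, at 14.44. The median of the macrophage list was highest on adenocarcinoma 1, 11.55, against 10.31 on dysplasia 3. Skeletal muscle sums were 988 to 4395 in normal, 452 to 1053 in dysplasia and 502 to 20745 in adenocarcinoma.

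**Figure D4:**
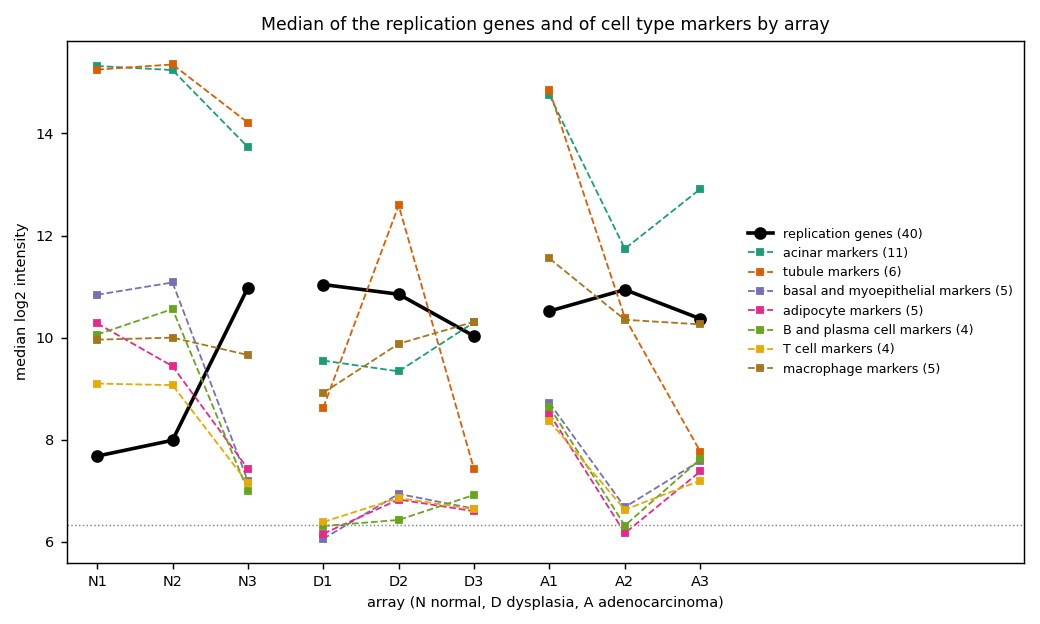
Median log2 intensity (y axis) of the 40 replication genes (black) and of 7 lists of cell type markers (dashed, number of measured markers in brackets) on each array (x axis); lines join the arrays of a group and the dotted line is background. The replication median is lowest on normal 1 and 2 (7.68 and 7.99), where the medians of all marker lists drawn except macrophage are highest.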

How the data were processed

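The deposited values are array intensities on a linear scale, as deposited by the authors, between 42.4 at the lowest and 15.63 on the log2 scale at the highest. Once sorted, the 9 columns agree to within 0.099%, the pattern that quantile normalization leaves. Per the submitters' processing notes limma was used (version not given). Background correction is not given in the sources used here. Another table with 9 signal and 9 detection p-value columns (18 in all), whose names match no label, was not used. Intensities were taken as log2. Background was set at 81.1 (6.34 on the log2 scale), from the mode of all values plus the 95th percentile of the distance of lower values from it. Probes above it on at least 3 arrays were kept, and the brightest represented its gene. The model was fitted with limma 3.58.1 (R 4.3.3) to 9 arrays with 3 group means, leaving 6 residual degrees of freedom. The steps were tested on simulated data.

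Folds written as at least N-fold put the background level in place of normal values below it. The genes, roles and lists were chosen with earlier results of these data known. Values on every array are given, per role, for up to 4 genes with the largest difference between dysplasia and normal and the 1 with the smallest, and in the lists of related genes for the 2 largest. Related genes and cell type markers came from lists, and unmeasured list members were left out. Alternatives covered background correction, normalization, the filter, the probe, the arrays in the model, array weights, a replicate block and leaving out each array. Figures were drawn with matplotlib 3.10.9.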

Additional observations from a re-analysis of the deposited data

How the results depend on the processing

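With 3 arrays per group and a normal group that spans both extremes, the calls against normal depend on whether normal 3 is included and on how the arrays are weighted. On all 9 arrays 0 of 40 genes passed in any of the 3 comparisons. The count stayed at 0 with normexp background correction, cyclic loess, no filter (42 genes), a filter on all 9 arrays (35 genes), probes averaged, a fit limited to the arrays compared and, added after seeing the data, normal 1 and 2 averaged and counted as 1 array. With array weights it was 39 in dysplasia against normal, 38 in adenocarcinoma against normal and 0 in adenocarcinoma against dysplasia, in a fit that called 61.3%, 35.4% and 0.0315% of all genes. The weights were 1.91, 4.79 and 0.169 for the normal arrays, 0.55, 6.44 and 0.373 for dysplasia and 1.73, 0.694 and 0.408 for adenocarcinoma. Leaving out each array in turn gave 0 to 36 in dysplasia against normal and 0 to 32 in adenocarcinoma against normal, where the counts above 0 came without normal 3 alone, and 0 in adenocarcinoma against dysplasia. The median differences ran from 1.19 to 2.55, 1.03 to 2.27 and -0.54 to -0.05. At an unadjusted p under 0.05, the 19 genes of dysplasia against normal became 3 without normal 1, 3 without normal 2, 4 without dysplasia 1, 7 without dysplasia 2, and 25 without dysplasia 3. The 12 of adenocarcinoma against normal became 0 without normal 1 or normal 2, 1 without adenocarcinoma 2, 4 without adenocarcinoma 3 and 6 without adenocarcinoma 1. With normal 1 and 2 averaged they were 3 and 0, and with only the arrays compared 10 and 4. With array weights 7 genes of adenocarcinoma against dysplasia had such a p. Shares of all genes at that p were counted in the main fit only, where 12.1% were higher in dysplasia and 8.06% in adenocarcinoma than in normal. The counts in the other settings therefore cannot be read against all genes.

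Between arrays with the same replicate number, deviations from the group means correlated at -0.463 to 0.239. In groups this small the deviations are bound to each other, and those of the normal group mostly reflect the array that stood apart. These correlations therefore cannot show or exclude a pairing of the arrays by number. With a replicate block 0 genes passed, and 13, 8 and 0 had an unadjusted p under 0.05, again with no share of all genes to set beside them.

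With each array left out in turn, 0 of 40 genes changed sign in dysplasia against normal, 2 in adenocarcinoma against normal and 19 in adenocarcinoma against dysplasia, and none of these differences passed the threshold on all 9 arrays. In adenocarcinoma against normal, Pold2 was at -0.22 with normal 1 and 2 averaged and ran from -0.22 to 0.60 when each array was left out, and Orc2 ran from -0.16 to 0.03. Of the 5 genes whose difference of adenocarcinoma from dysplasia is printed, 2 changed sign: Pold2 ran from -0.92 to 0.05 and Lig1 from -0.01 to 0.59. The cause was not tested.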
